A study of Mus musculus with 38 samples.

Results

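Of the 232068 base-unpairing regions (BURs) on chromosomes 1 to 19 and X, 37368 (16.1%) carried a SATB1 urea ChIP-seq peak in both brain replicates and none in either replicate of thymocytes or skin. These BURs bound in brain only were selected on measured values, namely the presence or absence of called peaks in 6 lists, with an overlap of at least 1 bp. Their brain enrichment and their lack of thymocyte and skin peaks therefore describe the choice and were not tested. They made up 51.3% of the 72789 BURs with a peak in both brain lists, which in turn were 31.4% of all BURs.

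BURs are stretches of DNA that unwind and stay unpaired under negative superhelical strain, and they typically hold clusters of sequences in which one strand lacks G, a mix of A, T and C known as the ATC context. SATB1 is a nuclear protein that recognizes this context and organizes chromatin. It is abundant in developing T cells, where it is required for their maturation, and it is also found in cortical neurons, including interneurons whose maturation depends on it, and in basal epidermal cells.

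The BUR reference map lists the fragments of purified thymocyte DNA that recombinant SATB1 captured in vitro, so it is free of any chromatin state. In urea ChIP-seq, crosslinked chromatin is spun through urea to strip proteins that are not crosslinked to DNA, and SATB1 is then precipitated. Brain chromatin came from cortex cells of wild-type C57BL/6 Satb1+/+ mice, thymocyte chromatin from thymus and skin chromatin from epidermal keratinocytes of the same genotype and strain, each with 2 replicates and the home-made antibody 1583D. Standard SATB1 ChIP-seq of wild-type thymocytes (2 replicates, the first with an Abcam antibody and the second with 1583D) and CTCF urea ChIP-seq of thymocytes and skin (1 list each) were also examined. The brain libraries were labelled as 5 and 6 weeks of age with 10 and 12 cycles, and the thymocyte and skin libraries as day 13, while the protocol texts gave other ages for brain and skin, and the titles of standard SATB1 replicate 1 and of the thymocyte CTCF library gave 6 weeks. Age and tissue therefore cannot be told apart where the labels hold. In each of the 3 tissues both SATB1 urea libraries carry the same experiment number, although the labelled ages of the brain libraries differ. The thymocyte replicates were labelled with 4 and 2 µl of antibody, and the skin replicates with sonication times of 55 and 60 s. The study describes its replicates as cells of different animals. According to the labels, neurons were the cells of the cortex suspension that express SATB1. The peak lists hold no expression values, so the labelled tissues were not checked against marker genes.

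The 6 lists differed greatly in size. Brain held 117963 and 109154 peaks, thymocytes 45049 and 38882, and skin 11210 and 10846. The brain lists also held 0 peaks on unplaced contigs, whereas each of the other 9 lists held between 104 and 6063, and the part of this in the results below was not tested. Depth is unknown because the lists hold no read counts. The median fold enrichment over all peaks lay between 7.05 and 7.96 in the 6 lists.

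To show what such sequences look like, stretches of 240 bases around the summit of the in vitro peak are given from the plus strand of NCBIM37 (mm9), 5′ to 3′. Capitals mark stretches of at least 25 bases without G or without C. The first line is the member with the highest mean brain fold enrichment and the second its near-identical copy on the same chromosome. The third is a strong member whose 50-base words each occur once in the genome. The fourth is the strongest member between Gabrg1 and Gabra2, and the fifth the strongest in Nrg3. The sixth is the member with the highest in vitro enrichment and the seventh the one with the weakest brain peaks. The last 2 lines are, for comparison, the strongest in vitro BUR bound in all 6 lists and the strongest bound in none.
strongest member, chrX:121199488-121199727: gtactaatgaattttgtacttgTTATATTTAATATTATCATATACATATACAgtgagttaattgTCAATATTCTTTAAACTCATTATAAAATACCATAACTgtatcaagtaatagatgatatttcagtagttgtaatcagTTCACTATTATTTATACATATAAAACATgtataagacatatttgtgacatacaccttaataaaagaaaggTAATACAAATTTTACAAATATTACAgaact
its near copy, chrX:120303665-120303904: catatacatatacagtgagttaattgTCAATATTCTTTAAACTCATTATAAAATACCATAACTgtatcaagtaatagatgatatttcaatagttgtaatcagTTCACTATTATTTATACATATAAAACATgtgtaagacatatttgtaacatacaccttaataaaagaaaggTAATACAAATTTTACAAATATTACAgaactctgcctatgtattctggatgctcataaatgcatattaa
strong member on X, chrX:53199934-53200173: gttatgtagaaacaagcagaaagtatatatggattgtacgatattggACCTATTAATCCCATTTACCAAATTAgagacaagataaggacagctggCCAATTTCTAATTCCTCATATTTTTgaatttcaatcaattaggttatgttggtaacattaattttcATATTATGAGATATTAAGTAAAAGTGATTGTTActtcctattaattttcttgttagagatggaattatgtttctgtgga
Gabra2 intron, chr5:71460944-71461183: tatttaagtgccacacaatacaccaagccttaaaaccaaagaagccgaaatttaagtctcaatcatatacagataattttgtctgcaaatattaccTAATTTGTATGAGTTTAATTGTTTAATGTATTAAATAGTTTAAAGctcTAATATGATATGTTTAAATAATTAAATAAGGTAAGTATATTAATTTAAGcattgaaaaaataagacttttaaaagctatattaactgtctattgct
Nrg3 intron, chr14:40275533-40275772: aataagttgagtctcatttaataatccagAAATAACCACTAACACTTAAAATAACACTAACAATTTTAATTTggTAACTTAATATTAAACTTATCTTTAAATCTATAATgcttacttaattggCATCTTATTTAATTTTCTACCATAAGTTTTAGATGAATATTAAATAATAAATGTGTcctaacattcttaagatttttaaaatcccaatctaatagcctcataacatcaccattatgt
highest in vitro fold among members, chr13:47911456-47911695: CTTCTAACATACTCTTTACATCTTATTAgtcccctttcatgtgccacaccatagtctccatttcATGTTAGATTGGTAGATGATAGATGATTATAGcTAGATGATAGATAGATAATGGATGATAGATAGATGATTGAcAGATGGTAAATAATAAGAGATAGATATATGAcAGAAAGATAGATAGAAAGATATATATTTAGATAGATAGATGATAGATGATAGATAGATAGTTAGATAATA
weakest brain peaks, chr10:55029877-55030116: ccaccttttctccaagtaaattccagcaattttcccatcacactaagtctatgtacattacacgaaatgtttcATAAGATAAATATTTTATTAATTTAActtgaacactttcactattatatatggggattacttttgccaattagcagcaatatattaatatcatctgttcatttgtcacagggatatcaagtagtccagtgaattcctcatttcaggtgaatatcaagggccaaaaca
bound in all 6 lists, chrX:139917500-139917739: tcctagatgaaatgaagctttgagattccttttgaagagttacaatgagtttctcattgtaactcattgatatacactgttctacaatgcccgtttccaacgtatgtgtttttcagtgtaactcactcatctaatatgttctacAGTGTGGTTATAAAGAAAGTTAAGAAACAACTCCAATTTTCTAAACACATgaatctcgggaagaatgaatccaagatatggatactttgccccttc
bound in none, chr7:82908135-82908374: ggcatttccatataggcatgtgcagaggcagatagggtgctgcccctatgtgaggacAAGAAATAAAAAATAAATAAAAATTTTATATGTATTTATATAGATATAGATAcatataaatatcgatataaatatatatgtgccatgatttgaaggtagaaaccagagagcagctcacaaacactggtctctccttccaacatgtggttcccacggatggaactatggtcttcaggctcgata
The 240 bases of the strongest member held 78.3% A and T, and 120 of them lay in capital stretches. The in vitro extreme on chromosome 13 held 201 bases in capitals, much of it repeated GATA, and over the whole BUR its longest stretch lacking G or C ran for 271 bases. The BUR bound in all 6 lists was less AT-rich over the printed bases (65.0%) and had 50 bases in capitals, and the unbound BUR had 62.9% and 52 bases. Long stretches of this kind were thus present in the unbound example too. The printed BUR bound in all 6 lists also had a peak in both standard SATB1 lists and both CTCF lists. Each of those lists overlapped only 1.17% to 1.82% of its class, so it is not a typical example.

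Within brain, the members had moderate enrichment that was alike in both replicates. The median fold enrichment was 7.21 in replicate 1 and 6.86 in replicate 2, a mean of 7.04 ± 0.250 (SD, n = 2). The interquartile range of members lay between 5.54 and 9.64 in replicate 1 and between 5.41 and 9.13 in replicate 2. Of the members, 87.3% had values within 1.5 times of each other in the 2 replicates, and the log2 values correlated across members with r = 0.74, a description over 37368 regions that share 2 libraries. Nearly all members held a single peak of each list (99.4% in both). The brain summit lay a median of 49 bp from the in vitro summit in each replicate, and 77.6% of members had a summit of replicate 1 within 100 bp of it.

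Enrichment in brain was ordered by how widely a BUR was bound. BURs with both brain and both thymocyte peaks but no skin peak (16782) had median brain folds of 12.99 and 12.67, and BURs bound in all 6 lists (6646) had 17.2 and 16.9. BURs with a peak in 1 brain list and no other list (18635) had 4.94 in replicate 1 and 5.02 in replicate 2. The members stood between these groups in both replicates, a description of values that the peak calls behind the classes partly fix.

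**Figure D1:**
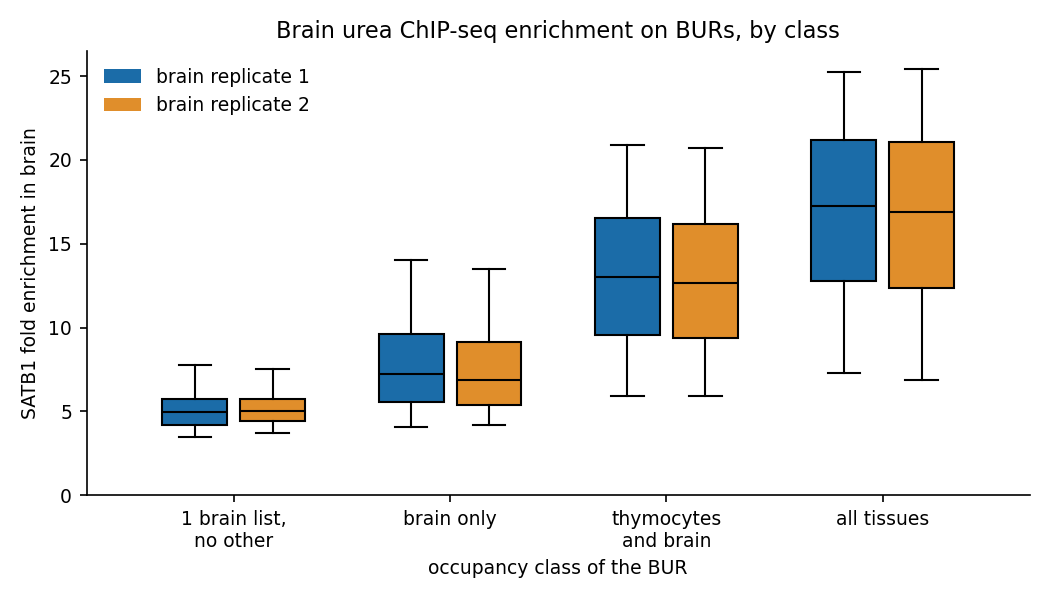
SATB1 fold enrichment (y axis, linear) of BURs in the 2 brain libraries by occupancy class. Boxes span the quartiles with the median as a line, whiskers the 5th to 95th percentile of BURs, and medians climb from near 5 for BURs in 1 brain list to 17.2 for BURs bound in all tissues.

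Among all BURs with both brain peaks, the share bound in brain only fell steadily with brain enrichment. It was 87.5% in the decile of lowest mean brain fold (median 4.70) and 2.80% in the decile of highest (median 19.99). A peak in thymocyte replicate 1 was present on 9.73% of the lowest decile and 96.6% of the highest, and a peak in skin replicate 2 on 1.30% and 46.3%. The BURs most enriched in brain were thus mostly called in thymocytes as well, and most members came from the weaker part of the brain range. Of 37651 BURs with a thymocyte peak, 93.9% had both brain peaks, while BURs bound in thymocytes or skin with no brain peak numbered 1191.

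**Figure D2:**
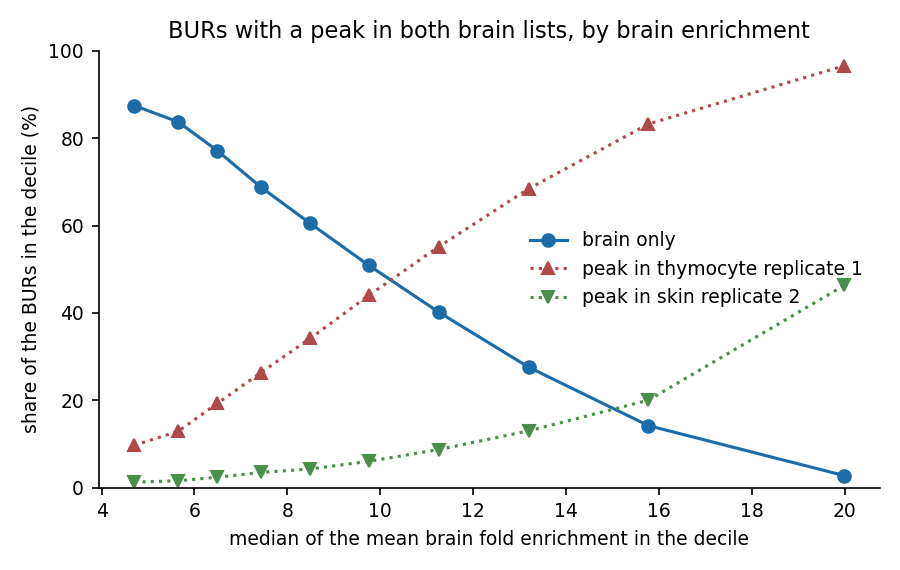
BURs with a peak in both brain lists, split into deciles of mean brain fold enrichment (x axis, decile median), with the share in percent that was bound in brain only, had a thymocyte replicate 1 peak or had a skin replicate 2 peak. The brain-only share descends from 87.5% to 2.80% as the thymocyte share climbs to 96.6%.

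Because of this order, the identity of the members depended on the number of peaks called in each tissue. When each of the 6 lists was cut to its 10846 peaks of highest −log10 q, 3025 BURs (1.30%) were bound in brain only, and 248 of these (8.20%) were among the members. The same cut left 587 BURs bound in thymocytes only and 937 in skin only. When the brain lists alone were cut to the 45049 peaks of the larger thymocyte list, 9360 members were left. Brain-only BURs thus outnumbered those of the other tissues at equal list size, but most were different BURs.

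Peaks near the limits of the rule were weak. The 3 members with the lowest mean brain −log10 q lay at chr10:55029837-55030201 (3.93 and 4.21 in replicates 1 and 2), in an intron of Myo5a at chr9:75007529-75007856 (3.35 and 5.55) and at chr7:69719726-69720205 (5.17 and 4.21). Just outside, BURs with 1 brain peak and no other had a median −log10 q of 10.5 for that peak. The 9540 BURs with both brain peaks and 1 thymocyte peak had a median thymocyte −log10 q of 9.06 and a median thymocyte fold of 5.33, with median brain folds of 10.03 and 9.65. Nearby thymocyte peaks were common: 15.4% of the members had a thymocyte peak within 3 kb, as did 14.9% of the 137925 BURs bound in none of the 6 lists, and the median distance to the nearest thymocyte peak was 11.6 kb and 14.0 kb. Skin peaks were rarer, with 3.24% of members within 3 kb of one.

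The in vitro map was not used to separate the classes, since every BUR is in it. The median in vitro fold enrichment was 5.29 for BURs bound in no list, 6.40 for the members, 8.15 for those of brain and thymocytes and 10.2 for those bound in all 6 lists. The spread within each class was wide: the interquartile range was 4.71 to 8.80 for members and 3.98 to 8.08 for unbound BURs. BUR length followed the same order, with medians of 416, 466, 491 and 514 bp. The share of BURs bound in brain only was 10.1% in the lowest decile of in vitro fold, reached 21.1% in the seventh and was 12.6% in the tenth. The share with both brain peaks went from 13.9% in the first decile to 44.3% in the ninth, and the drop in the brain-only share beyond the seventh decile came beside more thymocyte peaks of replicate 1, from 18.4% in the seventh decile to 28.1% in the tenth. Across members, mean brain fold and in vitro fold had a Spearman rho of 0.350, a description over regions that share the same libraries and that both depend on read mapping.

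Among BURs with both brain peaks, AT content was lower where thymocytes and skin were bound too. Median AT content was 71.4% in the members, 69.9% in BURs of brain and thymocytes and 68.0% in BURs bound in all 6 lists, while unbound BURs had 70.6%. The 99 BURs bound in thymocytes only and the 284 bound in skin only had 68.75% and 65.8%. AT content was at least 65% in 96.4% of the members, 87.0% of BURs of brain and thymocytes and 70.4% of BURs bound in all lists. The same held for 78.0% of unbound BURs and 83.2% of all BURs. BURs with a peak in 1 brain list and no other were close to the members, with 94.8% and a median AT content of 71.3%. In the tenth of BURs lowest in AT (below 62.4%), 1.74% were bound in brain only, against 21.4% in the sixth decile and 13.9% in the highest. Across members, AT content and mean brain fold were nearly unrelated (Spearman rho −0.02).

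**Figure D3:**
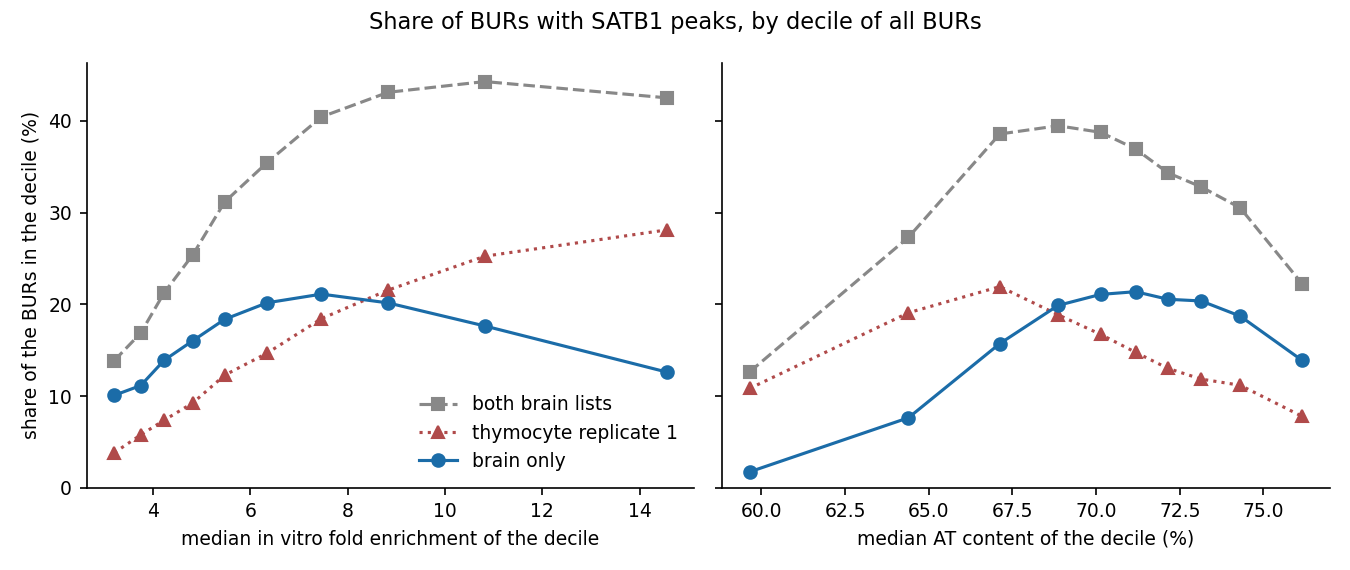
Share of BURs (y axis, percent) bound in brain only, bound in both brain lists or with a thymocyte replicate 1 peak, across deciles of in vitro fold enrichment (left) and AT content (right) of all BURs. The brain-only share peaks at 21.1% in the seventh in vitro decile and at 21.4% in the sixth AT decile.

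Taking both properties together, the brain-only share in the quintile of BURs with the highest in vitro fold went from 3.18% at the lowest AT content to 29.2% at the highest. In the quintile with the lowest in vitro fold it went from 10.3% to 6.15%, with its highest value of 15.4% in the second AT quintile. The highest value of the 25 combinations was 30.5%. The relation to AT content thus differed with in vitro enrichment, as a description with no test.

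**Figure D4:**
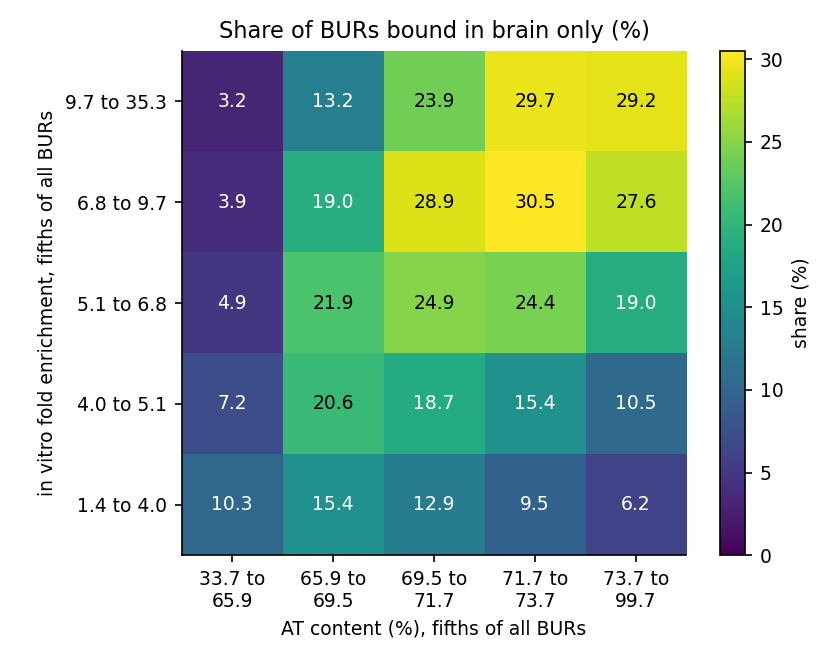
Share of BURs bound in brain only (color and printed value, percent) by quintiles of AT content (x axis) and of in vitro fold enrichment (y axis) of all BURs. Shares are highest, up to 30.5%, where both are high, and 3.18% where in vitro enrichment is high and AT content low.

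ATC-type stretches did not rise with brain binding. The median share of bases in stretches of at least 25 without G or without C was 23.6% in the members, 22.0% in BURs of brain and thymocytes, 21.6% in those bound in all lists and 26.6% in unbound BURs. The longest such stretch had a median of 39 bases in members and 46 in unbound BURs. The brain-only share was 20.1% in the decile of BURs with the least of this sequence and 9.07% in the decile with the most. Unique mapping also differed between the classes: all 50-base words were unique in the genome for 90.5% of members and 68.9% of unbound BURs, and under 50% of words were unique in 0.565% and 3.98%. Its part in these differences was not tested. Of BURs with at least 90% unique words, an alternative added after the data were seen, 17.4% were bound in brain only.

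Few members overlapped standard SATB1 or CTCF peaks. Standard SATB1 peaks of thymocytes overlapped 0.150% (replicate 1) and 0.163% (replicate 2) of the members, beside 0.649% and 0.521% of all BURs, and 1.82% and 1.72% of BURs bound in all 6 lists. Thymocyte CTCF peaks overlapped 0.120% of members beside 0.221% of all BURs, and skin CTCF peaks 0.318% beside 0.522%. These overlaps came to 56, 61, 45 and 119 members, and no brain CTCF or brain standard list was used here. The mean share on a standard SATB1 peak was 0.157%, which became 0.413% with lists of equal size and 0.0857% when 50% of the shorter region had to be shared. The share on either CTCF list was 0.335% and became 0.120% under the same 50% overlap. Low shares were not particular to the members. BURs with 1 brain peak and no other had 0.258% and 0.161% for standard SATB1, and 0.134% and 0.343% for thymocyte and skin CTCF. For unbound BURs these were 0.734%, 0.554%, 0.198% and 0.453%. All 4 lists come from thymocytes or skin, the tissues whose urea SATB1 peaks the rule excludes.

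The members lay far from gene starts. Their median distance to the nearest start of a protein-coding gene was 183 kb, beside 166 kb for BURs of brain and thymocytes, 114 kb for BURs bound in all 6 lists and 116 kb for unbound BURs. The brain-only share was 12.8% in the tenth of BURs closest to a start (within 10225 bp) and 19.8% in the tenth farthest away. Yet the share inside a gene body was close to that of unbound BURs (31.995% and 31.9%): 28.7% of members were intronic, 3.30% touched an exon, and 306 lay within 1 kb of a start. Gene length went along with the share. In genes of up to 50 kb 12.6% of BURs were bound in brain only, in genes of 50 to 200 kb 14.9%, in genes of 200 to 500 kb 17.01% and in genes over 500 kb 18.5%. Outside genes it was 16.1%. The share with both brain peaks also went up with gene length, from 26.4% in genes of up to 50 kb to 35.2% in genes over 500 kb. The order by length was thus not particular to the members.

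Genes that held the most members were very long, and several of them act at synapses. Lrp1b, a lipoprotein receptor relative, held 100 members among its 447 BURs over 2058 kb, Ptprd, a synaptic receptor phosphatase, 86 of 422, and Cntnap2, a neurexin-family adhesion protein, 74 of 378. Erbb4, the neuregulin receptor of cortical interneurons, held 70 of 264, which was 26.5%. Sgcz held 66 of 265, Csmd3 63 of 302, Lrrc4c, a netrin-G ligand at synapses, 60 of 275, Fam190a 59 of 273 and Dmd, which encodes dystrophin, 57 of 301. In these 9 genes the brain-only share lay between 18.9% and 26.5%, beside 18.5% in all genes over 500 kb. The genes were picked for their number of members, which partly fixes a high share. Mean brain fold of the Erbb4 members ran from 3.22 to 14.6 with a median of 6.95, and that of the Lrp1b members from 3.82 to 17.8 with a median of 7.36. The strongest member in Lrp1b, at chr2:41966859-41967486 in an intron, had folds of 17.9 and 17.7, and the strongest in Erbb4, at chr1:69060298-69061019 in an intron, had 13.4 and 15.9.

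Of 740 genes with at least 20 BURs, the median brain-only share was 17.8% with an interquartile range from 12.5% to 22.0%. The highest shares were in Zeb1, a zinc finger repressor of epithelial genes (9 of 20), Sis, which encodes the intestinal enzyme sucrase-isomaltase (10 of 24), Kif16b, an endosomal kinesin (8 of 20), Fars2, a mitochondrial phenylalanyl-tRNA synthetase (11 of 28), Pdlim5 (9 of 23) and Dlg1, a synaptic scaffold (13 of 34). In Zeb1 all 9 BURs with both brain peaks were members, and neither thymocyte list had a peak on its BURs. In Sis, Fars2 and Pdlim5, by contrast, 6, 4 and 3 BURs carried a peak of thymocyte replicate 1. In 8 genes of this size no BUR was a member. Gm16430, Gm8871 and Gm8897 had few unique words (medians of 0%, 0% and 5.13%), whereas Med12l, Rapgef4, Serpini1 and Skap1 had a median of 100%. In these 4 genes 3 to 5 BURs had both brain peaks. Each of those also had a thymocyte or skin peak, which the rule fixes where no BUR is a member.

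The gene lists were read within 20 kb of each gene, where 15.0% of the 101923 BURs near any protein-coding gene were bound in brain only. The share was 18.5% in bodies of genes over 500 kb. No list was tested against another. Among adhesion and guidance families, non-clustered protocadherins held 160 members of 746 BURs (21.4%), axon guidance genes 315 of 1561 (20.2%), cadherins 152 of 756 (20.1%) and synaptic and axonal adhesion genes 801 of 4406 (18.2%). Within gene bodies the leading genes were Pcdh9 (45 of 200), the ephrin receptor gene Epha6 (42 of 182) and Cdh18 (37 of 219). Without the gene holding most members (Pcdh9, Epha6, Cdh18 and Cntnap2) these shares were 21.2%, 19.9%, 21.9% and 18.0%. Brain peaks in both lists were present on 34.7% to 38.9% of BURs in these 4 lists, beside 30.0% near all genes.

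Marker lists of cortical neurons rested on single genes. Cortical excitatory neuron genes held 54 of 229 (23.6%), of which 38 lay at Foxp2, a transcription factor of deep-layer neurons, and 14.5% of the remaining BURs were members. Cortical interneuron genes held 97 of 477 (20.3%), of which 72 lay at Erbb4, and 12.2% of the rest were members. At Satb1 itself 2 of 25 BURs were members, at Sox6 8 of 58 and at Reln 7 of 55. Gad1, Sst and Pvalb had 0 members among 4, 4 and 1 BURs, and Calb1 0 of 11. Other genes of the list with few BURs held some: Dlx1 2 of 5, Npy 1 of 4, Vip 1 of 5 and Gad2 1 of 7. Neuronal immediate early genes held 8 of 51 (15.7%), 4 of them at Homer1.

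Among receptor and channel genes, metabotropic glutamate receptors held 83 of 461 (18.0%), ionotropic glutamate receptors 137 of 768 (17.8%), voltage-gated sodium and calcium channels 38 of 236 (16.1%) and voltage-gated potassium channels 85 of 547 (15.5%). Without the gene holding most members these shares were 16.5%, 16.1%, 14.8% and 14.3%. Leading genes by gene body were Grm8 (25 of 133), the sodium channel gene Scn9a (8 of 34) and the potassium channel gene Kcnd2 (23 of 108). The metabotropic gene left out above, chosen by counts within 20 kb, was Grm5 (26 of 115) and not Grm8. GABA-A receptor subunit genes, which encode the chloride channels of fast inhibition, held 68 of 395 (17.2%), in 13 of 18 genes with a BUR. Without Gabra2 the share was 15.8%. Gabra2 and Gabrb2 had 10 members each, of 29 and 41 BURs, Gabrb1 had 9 of 74 and Gabra5 1 of 13. Members at these subunit genes had brain folds from 3.64 to 17.4 in replicate 1 and from 3.76 to 16.97 in replicate 2.

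Lists of other cell types were mixed. T-cell genes held 10 of 127 (7.87%), 5 of them at Themis. The others lay at Ccr9 (2 of 10), Cd28 (1 of 9), Ikzf1 (1 of 8) and Runx1 (1 of 9), while Cd4 had 0 of 5 and Bcl11b 0 of 3. Other binding was low at these T-cell genes as well. Both brain peaks were present on 18.1% of their BURs, beside 30.0% near all genes, and thymocyte replicate 1 peaks on 11.0% beside 14.4%. Glial genes held 1 of 48 (2.08%), at Aldh1l1, ribosomal protein genes 4 of 126 (3.17%) and keratin genes 5 of 53 (9.43%). Keratinocyte genes held 20 of 109 (18.3%), 6 of them at Trp63, the epidermal transcription factor. Olfactory receptor genes held 705 of 4070 (17.3%), vomeronasal receptor genes 223 of 1811 (12.3%) and zinc finger Zfp genes 133 of 1043 (12.8%). The leading gene bodies here were Krt23 (1 of 1), Olfr1082 (2 of 3), Vmn2r103 (3 of 8) and Zfp407 (8 of 52). Base composition also differed between lists. Median AT content of BURs was 62.4% at ribosomal protein genes, 64.9% at glial, 64.5% at keratin and 68.3% at T-cell genes. It was 72.3% at protocadherins and 72.2% at cadherins. The share did not always follow AT content. Immediate early genes had 67.7% with a share of 15.7%, and vomeronasal genes 71.0% with 12.3%. Excitatory neuron genes had 70.8% with the highest share of the lists, 23.6%. Of BURs at vomeronasal genes, 26.1% had under 50% unique words. The part of these properties was not tested. The marker lists were chosen with earlier results of these data known, and several held under 60 BURs.

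**Figure D5:**
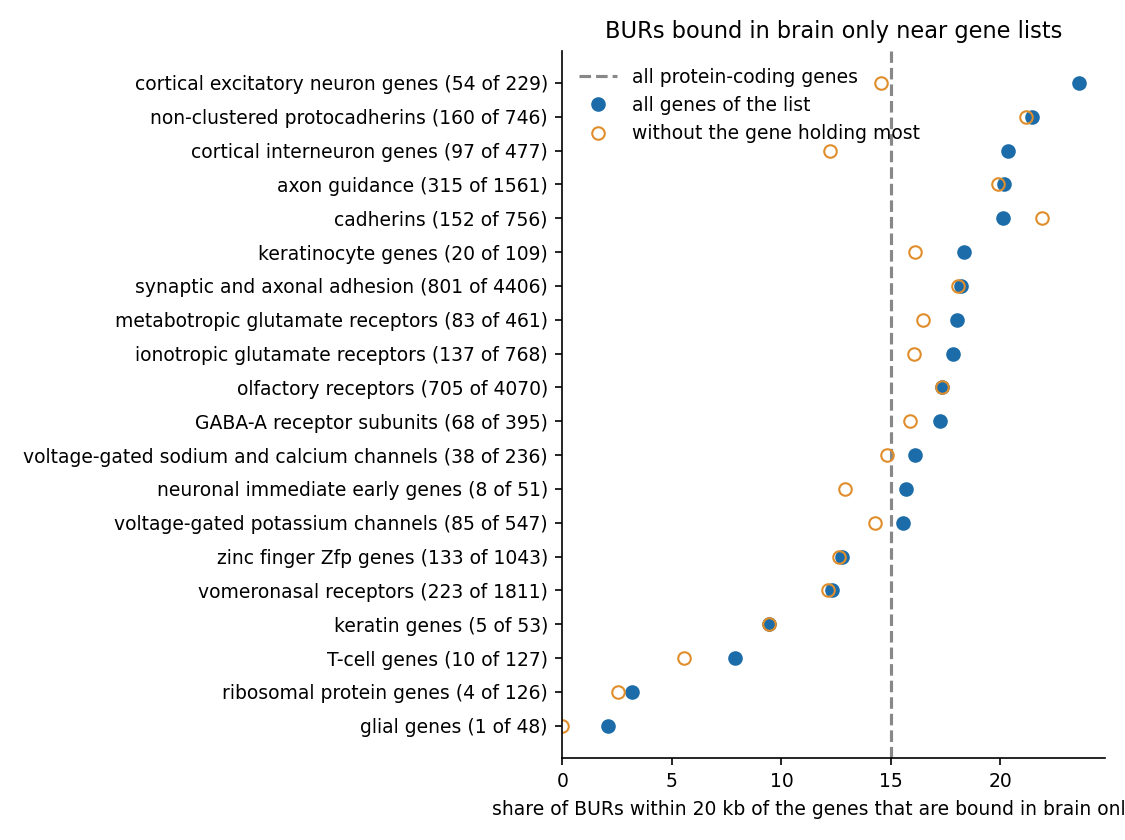
Share of BURs within 20 kb of the genes of each list that were bound in brain only (x axis, percent, members and BURs in parentheses), for all genes of the list and without the gene holding most members, with the 15.0% of all protein-coding genes as a dashed line. Adhesion and guidance lists stay right of the line without their leading gene, as do the glutamate and GABA-A receptor and keratinocyte lists. For olfactory receptor (705 of 4070) and keratin genes (5 of 53) leaving out the leading gene changed no count, so their 2 points coincide. Both cortical neuron lists, both channel lists and the immediate early genes move left of it.

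The window from Gabrg1 to Gabra2, chr5:71142286-71487088, is a stretch of 345 kb that holds 2 GABA-A subunit genes. Of its 68 BURs, 20 (29.4%) were members, beside 16.1% of all BURs, and 25 had both brain peaks. The study itself displayed a region with these 2 genes as an example of more BUR binding in brain. The high share is therefore partly fixed by the choice of this window. Brain replicates 1 and 2 had peaks on 33 and 27 BURs, thymocyte replicates on 5 and 4, and each skin replicate on 1, while standard SATB1 and CTCF lists had peaks on 0. Introns of Gabra2 held 8 members and introns of Gabrg1 held 6. At Gabrg1 all 6 BURs with both brain peaks were members. Mean brain fold of the 20 members ran from 4.72 to 15.5. The strongest, at chr5:71460906-71461285 in an intron of Gabra2, had folds of 17.1 and 13.9 in brain but an in vitro fold of 4.72. The next, at chr5:71484739-71485229, lay 1.86 kb from the start of Gabra2 with folds of 13.7 in each replicate and an in vitro fold of 9.24. In the neighbouring cluster genes, 3 of 13 BURs in Gabra4 and 9 of 72 in Gabrb1 were members.

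The strongest members lay on the X chromosome and included repeated sequence. All 5 members with the highest mean brain fold were on X and intergenic. The first, at chrX:121199393-121199861, had folds of 25.9 and 27.04, and the second, at chrX:120303557-120304004, had 24.8 and 27.5. The 2 sequences were 98.0% identical over 444 aligned positions, and 19.05% and 7.5% of their 50-base words were unique. The third, at chrX:17708850-17709325, had folds of 24.6 and 26.4, the fourth, at chrX:53199842-53200189, had 23.4 and 24.1 with 100% unique words, and the fifth, at chrX:73680671-73680972, had 26.0 and 21.2. These 3 shared 81.1% to 84.7% of aligned positions with each other. Their in vitro folds were modest, from 3.48 to 7.34 over the 5. Of the 30 members with the highest mean brain fold, 6 were on X and 20% had under 50% unique words, against 4.10% on X and 0.565% among all members. Of the strongest 1000 members, 3.6% were on X and 1.2% had under 50% unique words, so the lean to X held for a handful of members.

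Unplaced contigs also touched some strong members. For 18 members, the share of unique words fell by at least 50 points once unplaced contigs were counted, among them 3 of the 30 strongest. At chr6:79328917-79329461 it fell from 100% to 0%, and this member had brain folds of 21.9 and 19.8. Another 4 lay in an intron of Nlgn1, which encodes a synaptic adhesion protein, with brain folds between 3.29 and 9.20. The brain lists held no peaks on such contigs, and the part of this was not tested. Of this kind were 18 of the 37368 members, 34 of the 137925 unbound BURs and 59 of all 232068 BURs. The 6646 BURs bound in all 6 lists included 0. These counts are too small to set the classes apart.

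Among members with at least 90% unique words, chosen after the values were seen, the strongest beside the 2 on X were at chr7:6883086-6883518, 30.4 kb from the start of Usp29 (folds of 23.8 and 21.4), and in an intron of Ppfia1, which encodes a liprin, at chr7:151727663-151728107 (22.6 and 21.04). The member at chr12:56926234-56926837 had folds of 20.5 and 22.95, and that at chr6:44601418-44602053, 408 kb from the start of Cntnap2, had 21.4 and 21.6. In Nrg3, which encodes a neuregulin that binds Erbb4, the member at chr14:40275361-40276159 had 20.6 and 19.05. The member with the highest in vitro fold (26.6), at chr13:47911307-47912111, had brain folds of 4.79 and 6.19. In vitro and brain enrichment thus ranked these members differently. For comparison, the strongest in vitro BUR bound in all 6 lists, at chrX:139917310-139917894 and 35.2 kb from the start of Pak3, had an in vitro fold of 30.6 and brain folds of 31.2 and 32.2, and the strongest unbound BUR, at chr7:82907985-82908523, had an in vitro fold of 35.3.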

How the data were processed

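Peak lists of 11 of the 38 samples were analysed, the others not being part of the rule or its comparisons, with the condition and replicate of each taken from the sample labels. The authors mapped 50-base reads to mm9 with Bowtie2 2.3.1, keeping unique matches, and called peaks per sample with MACS2 2.2.7. The deposited lists give for each peak a display score, its summit's fold enrichment (a ratio over local background), and the −log10 of the p-value and q-value, each made by the authors' peak caller within its own list and not scaled between samples. The score was not used. Read counts and signal tracks were not used here, so depth is unknown and no counting interval was given for enrichment. The precision is the spread between 2 replicates.

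A BUR was bound in a list when it shared at least 1 bp with a peak, and its fold was the highest among such peaks. Sequence was read from NCBIM37 and genes from GENCODE vM1 (protein-coding). Uniqueness is the share of 50-base words, taken every 10 bases, found at 1 place in the genome on either strand, unplaced contigs included. Overlap and sequence functions were tested on simulated data. Python 3.11.15, numpy 2.4.6, pandas 2.3.3, numba 0.67.0, biopython 1.88 and matplotlib 3.10.9 were used. No test was run, because the rule used all 6 lists.

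The members, gene lists and alternatives were chosen with earlier results of these data known. Named genes were the 10 with most members, of genes with at least 20 BURs the 6 highest and 4 lowest in share (8 tied at 0), the gene with most members in each list, and Gabra2, Gabrg1, Gabra4, Gabrb1 and Cd4. In the gene body, 0 glial and 0 ribosomal protein genes held a member. Named BURs were the 5 strongest in brain, the highest in vitro, the 3 weakest, the strongest between Gabrg1 and Gabra2, and the strongest in vitro of the BURs bound in all lists and in none. Some genes that this rule names are not reported here. Thymocyte replicates were numbered as in the labels. As alternatives, peaks were limited to a −log10 q of 5 or more, and the rule was changed to an overlap of 50% of the shorter one, the SATB1 summit inside the BUR, lists of equal size, a distance of 3 kb, 1 brain list in place of both, each list left out, and, added after the data were seen, BURs with at least 90% unique words.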

Additional observations from a re-analysis of the deposited data

How the results depend on the processing

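No paired analysis was possible because no result came from a test. With all 6 lists cut to 10846 peaks, the number of BURs bound in brain only was 3025 and the percent 1.30, the median brain fold was 17.5, the median in vitro fold 10.1, the median AT content 72.0%, the share inside a gene 29.7% and the share on a standard SATB1 peak 0.413%. With the brain lists cut to 45049 peaks, the corresponding values were 9360, 4.03%, 11.1, 7.78, 71.7%, 30.9% and 0.208%, and 0.427% were on a CTCF peak (0.335% as reported for either CTCF list). With a peak in at least 1 brain list, the percent was 24.1, the brain fold 6.39, the in vitro fold 6.06 and the standard SATB1 share 0.174%. With no thymocyte or skin peak within 3 kb, 13.6% were brain only, with an in vitro fold of 6.53 and an AT content of 71.2%. A −log10 q of at least 5 gave 16.3% and a standard SATB1 share of 0.133%, an overlap of 50% gave 15.8%, 0.0857% for standard SATB1 and 0.120% for CTCF, and a summit inside the BUR gave 15.5% and an in vitro fold of 6.49. Among BURs with at least 90% unique words, an alternative chosen after seeing the data, 17.4% were brain only, with an AT content of 71.4% and a standard SATB1 share of 0.128%. The cause of these shifts was not tested, except that shorter lists hold fewer and stronger peaks.

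With each list left out in turn, the number ran from 37390 to 49755, the percent from 16.11 to 21.4, the brain fold from 6.33 to 7.45, the in vitro fold from 6.21 to 6.47, the AT content from 71.2% to 71.4%, the share inside a gene from 31.97% to 32.1%, the standard SATB1 share from 0.156% to 0.187% and the CTCF share from 0.324% to 0.351%. Of 112 values over 8 results and 14 settings, 64 moved by less than the replicate SD, the 95% interval or 1.5 times for the count, and 48 moved by more. The 95% intervals treat single BURs as independent, so they are narrow and do not measure the spread between replicates. The tally therefore depends on the number of BURs. Shares of single gene lists rest on few regions when lists are short: with lists of equal size, 8 BURs at GABA-A receptor subunit genes were bound in brain only, and 0 at voltage-gated sodium and calcium channel genes.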

Other observations

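BURs bound in brain only were spread over all chromosomes. Chromosome 16 had the highest share (18.0% of its 10732 BURs) and chromosome X the lowest (12.5% of 12240), followed by chromosome 7 (13.1%) and chromosome 11 (13.7%). On X, 9.37% of BURs had under 50% unique words, and on chromosome 7 11.3%. With BURs of at least 90% unique words the shares were 14.4% on X, 15.8% on chromosome 7 and 18.9% on chromosome 16. Per Mb of known sequence, members numbered 20.4 on chromosome 16, 20.2 on chromosome 3 and 9.27 on chromosome 7, while BURs numbered 113, 114 and 70.9.

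Members occurred in 2466 of 2582 windows of 1 Mb that held a BUR. Of 1834 windows with at least 50 BURs, the median share was 16.3% with quartiles of 12.3% and 19.6%. The windows with most members were gene-poor: chr16:68000001-69000000 held 66 of 249, chr1:143000001-144000000 63 of 250, chr14:108000001-109000000 63 of 241 and chr1:48000001-49000000 62 of 220, none of them with a protein-coding gene, and chr15:47000001-48000000 held 62 of 235 with Csmd3. The highest shares were 29.1% at chr13:86000001-87000000, 28.5% at chr3:12000001-13000000 and 28.2% at chr1:48000001-49000000. No member lay in 17 windows with at least 50 BURs, in each of which the median share of unique words was at most 29.8%. They include chr12:19000001-20000000 with 59 BURs, chr12:20000001-21000000 with 77 and chr12:22000001-23000000 with 71. Neighbouring BURs were weakly alike: the next BUR on the chromosome was a member after 17.4% of members and after 15.9% of other BURs.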
